A study of Mus musculus with 74 samples.

Results

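Matrix metalloproteinases (Mmp genes), their tissue inhibitors (Timp genes) and the Adamts proteases were followed while mouse embryonic fibroblasts were driven towards induced neural stem cells or induced pluripotent stem cells. Every row of both expression tables whose name begins with Mmp, Timp or Adamts followed by a digit was taken, whatever its level. This gave 43 genes (21 Mmp, 4 Timp and 18 Adamts) of 21799 in either table, with 42 in each table. Mmp20 had a row in the NSC-medium table alone, Mmp7 in the parallel table alone, and Mmp1a, Mmp21 and Adamts13 had no row in either. All 42 members of each table reached 10 in 2 or more libraries, the minimum set here, and were tested.

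The reprogrammed groups of the NSC-medium experiment were mouse embryonic fibroblasts with a Sox2-GFP reporter, carrying the M2rtTA activator and doxycycline (Dox)-inducible lentiviral factors. K_FNV received Klf4 and eSox17FNV, an engineered variant of Sox17. BKM_FNV, BKM_Sox17 and BKM_Sox2 received Brn4, Klf4 and c-Myc with eSox17FNV, Sox17 or Sox2. They were kept in NSC medium, which contains bFGF and EGF, and sampled with Dox at days 4, 8, 12 and 18 and without it at days 24 and 30. Established induced lines made with Klf4 and eSox17FNV (iNSC_KF) or with all 4 factors (iNSC_BKMF) were taken at passage 15. They were set against primary Sox2-GFP neural stem cells (NSC) at passage 15 and Sox2-GFP fibroblasts (MEF) at passage 1 in MEF medium without Dox. In the parallel experiment, fibroblasts with Nanog-CreER, Rosa26-tdTomato and Sox2-GFP received Klf4, c-Myc and eSox17FNV with Dox in N2B27 medium to day 8. They then went into LIF/2i, which holds LIF, CHIR99021 and PD0325901 and favours pluripotent cells, or into NSC medium, and were sampled with Dox at days 12 and 16 and without it at days 20 and 24. No cells without factors were kept in these media, so factors, Dox and medium cannot be told apart in any comparison with MEF. In the parallel experiment the MEF reference is also another fibroblast line.

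Each group had 2 libraries, apart from 1 each of BKM_Sox17 and BKM_Sox2 at day 30. The labels do not say whether these were separate cultures, so a p measures the spread between these libraries. Values are normalized tag counts on a common distribution, with column sums of 17698392 to 17710071 in the NSC-medium table and 17848683 to 17866021 in the parallel table. Read depth is unknown, and values are not per length, so levels are compared within a gene only. Replicate 1 of BKM_Sox2 at day 24 correlated at 0.0578 with its replicate, against 0.949 to 0.961 for the other pairs of that table, and was left out of the fits. The labelled cell types fitted their defining markers: the summed value of 10 neural stem cell genes was 73514 to 123306 in the 3 neural stem lines and 1757 to 1881 in MEF, and that of 12 fibroblast genes 653 to 1235 and 258827 to 262930. MEF also held all 13 macrophage genes looked for, with sums of 5126 and 5456. In bulk samples, fewer cells of a type and less RNA per cell cannot be told apart.

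Mmp genes encode zinc proteases that are made as inactive precursors and are secreted or held at the cell surface. They cut collagens, laminins, proteoglycans and growth factor carriers. Timps bind the active sites of Mmp proteins, and Timp3 also inhibits several Adam and Adamts proteases. Adamts proteases carry thrombospondin repeats and cut proteoglycans, procollagens and other matrix proteins. In fibroblasts these genes serve matrix turnover and migration, and in brain the matrix they act on is rich in hyaluronan and lecticans such as versican, brevican and neurocan.

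Of the 43 members, 9 lie side by side at chr9:7272514-7699585 (GRCm38, GENCODE M21) in the order Mmp13, Mmp12, Mmp1b, Mmp3, Mmp10, Mmp8, Mmp27, Mmp20 and Mmp7. The annotation places 10 Mmp genes there, Mmp1a included. Several genes of this cluster carried large differences between cocktails. The 110 bases before the start of 5 cluster genes that hold both motifs marked are shown, from the RefSeq promoter table of build GRCm38.p6. Capitals mark TGANTCA, the AP-1 site with any middle base, and TATAAA, the letters of a TATA box.
Mmp13 at chr9:7272404-7272513, plus strand: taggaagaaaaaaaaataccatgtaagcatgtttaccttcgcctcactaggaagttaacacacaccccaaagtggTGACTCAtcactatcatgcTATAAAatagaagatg
Mmp3 at chr9:7445712-7445821, plus strand: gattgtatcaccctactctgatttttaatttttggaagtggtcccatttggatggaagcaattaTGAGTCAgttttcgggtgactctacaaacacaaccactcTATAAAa
Mmp10 at chr9:7502232-7502341, plus strand: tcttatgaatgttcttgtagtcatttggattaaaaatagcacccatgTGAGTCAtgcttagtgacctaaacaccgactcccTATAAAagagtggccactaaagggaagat
Mmp1b at chr9:7388027-7388136, minus strand: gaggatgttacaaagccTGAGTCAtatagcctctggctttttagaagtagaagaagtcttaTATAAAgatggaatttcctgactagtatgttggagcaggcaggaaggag
Mmp20 at chr9:7628121-7628230, plus strand: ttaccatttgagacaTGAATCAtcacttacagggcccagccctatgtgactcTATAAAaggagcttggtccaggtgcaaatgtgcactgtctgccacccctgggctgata

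The motif TGANTCA reads the same on both strands and stood 35 to 29 bases before the start of Mmp13, 46 to 40 before Mmp3, 63 to 57 before Mmp10, 93 to 87 before Mmp1b and 95 to 89 before Mmp20. Windows of 250 bases before to 50 after the start were given for 29 members, and 7 of these held TGANTCA, against 8.97% of 27025 genes with a window. All 7 belong to the cluster (Mmp12 and Mmp7 besides the 5 shown), where 9 members had a window, and none of the 20 members elsewhere held it. Mmp8 and Mmp27 of the cluster did not hold it. Mmp8, not shown, was also called higher in K_FNV than in BKM_FNV, by log2 2.71 ± 1.01 on Dox and 3.39 ± 1.43 after it. Its adjusted p in limma was 0.025 and 0.048, and libraries of the 2 cocktails overlapped in both periods. Mmp8 averaged 40.6 and 13.4 on Dox and 34 and 0 after it. It was listed at 0 in 24 of 53 libraries, so the size of these differences depends on the pseudocount. TATAAA, searched on both strands, was in 9 of 29 members and in 15.7% of genes. ACAATG, letters of a Sox site searched on both strands, was in 4 of 29 members and in 14.3% of genes. These are matches of letters in short windows, not shown to be sites. Mmp12 and Mmp1b overlap on opposite strands by 1261 bases, and Mmp1a, a near copy of Mmp1b, had no row, so values of Mmp12 and Mmp1b are uncertain.

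Primary neural stem cells differed from MEF in most members, with more of them lower than higher. Compared with MEF, 30 of 42 members passed the test in NSC, 8 higher and 22 lower. Of all 20760 genes tested 34.4% passed, 17.7% higher and 16.7% lower. A gene passed, and is said to have risen or fallen, when its adjusted p in limma was below 0.05 and its log2 fold change was at least 1 in size. The median log2 fold change of the members was -2.05, against 0.06 over all genes. Timp1, a secreted inhibitor at chrX:20870166-20874735, was at 0 and 18 in NSC, against 3320 and 3125 in MEF, a log2 fold change of -8.99 ± 0.48 (SE, adjusted p = 1.2e-15). Mmp14, the membrane-type protease that activates Mmp2 (chr14:54431612-54445364), was at 61 and 53 in NSC and at 9479 in both MEF libraries, with log2 -7.33 ± 0.15 (adjusted p = 2.1e-25). The groups lay far apart for both genes.

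Other inhibitors and gelatinases shared this pattern. Timp2, which also takes part in Mmp2 activation, averaged 915 ± 125 in NSC and 9346 ± 185 in MEF (SD, n = 2 each). Timp3 averaged 786 ± 193 in NSC and was at 11080 in both MEF libraries. Mmp2, the gelatinase at chr8:92827291-92853420, was at 66 and 75 in NSC, against 2436 and 2230 in MEF, with log2 -5.01 ± 0.20. Mmp9, the other gelatinase (chr2:164940780-164955850), was at 11 and 7 in NSC, against 198 and 156 in MEF. Mmp3, Mmp10, Mmp11 and Mmp13 were listed at 0 in both NSC libraries and lay between 151 and 507 in MEF. Adamts1, Adamts2 and Adamts5 fell too, with Adamts2, a procollagen N-proteinase, at 7 and 29 in NSC and 930 and 884 in MEF. Mmp12, the macrophage elastase, was at 180 and 0 in NSC and 458 and 412 in MEF (log2 -4.52), a call lost without NSC replicate 2 (-1.26, adjusted p = 0.40). The summed macrophage genes were also lower in NSC, at 33 and 534, than in MEF, at 5456 and 5126. Their part in these differences was not tested.

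Members higher in NSC came from the Mmp, Timp and Adamts families, as did those that fell. Mmp15, a transmembrane protease (chr8:95352268-95375080), had 7448 and 5077 in NSC and 16 and 25 in MEF, a log2 fold change of 8.12 ± 0.29 (adjusted p = 1.6e-19). Timp4, at chr6:115241892-115252205, had 996 and 899 in NSC and 0 and 19 in MEF, with log2 7.19 ± 1.07 (adjusted p = 1.2e-06). Both genes were far above MEF in every neural stem library. Adamts4, a proteoglycanase that cuts aggrecan, versican and brevican, had 1291 and 1933 in NSC and 198 and 174 in MEF (log2 3.08 ± 0.23). Adamts7 rose as well, to 1665 and 1725 in NSC, against 226 and 204 in MEF (log2 2.97 ± 0.20). Adamts19 had 104 and 94 in NSC and was listed at 0 in MEF.

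Genes of the wider pathway were read from lists of factors and substrates. Of all 20760 genes, 7141 passed between NSC and MEF, 3677 of them higher in NSC. Of 11 tested genes of plasminogen and Mmp activation, 3 were higher and 6 lower in NSC than in MEF. Among them the urokinase receptor gene Plaur was listed at 0 in NSC and averaged 1480 in MEF. Of 8 proteoglycan substrates, 2 rose and 6 fell: the brain lectican Ncan averaged 13004.5 in NSC and was listed at 0 in MEF, and Bgn averaged 18.5 in NSC and 78139 in MEF, the highest value of the table.

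The induced lines differed from primary NSC in unlike shares of the members. In iNSC_BKMF, 2 of 42 members differed from NSC, both lower, where 2.02% of all genes did (1.02% higher and 1.00% lower). Mmp14 had 20 and 19 in iNSC_BKMF, against 61 and 53 in NSC (log2 -1.45 ± 0.15), and Adamts14 had 92 and 50, against 254 and 129 (log2 -1.39 ± 0.37, adjusted p = 0.023). Neither passed when these groups alone were fitted (adjusted p = 0.12 and 0.29), and the Adamts14 call was lost on leaving out iNSC_BKMF replicate 2 (log2 -0.96) or NSC replicate 1 (log2 -0.91). In iNSC_KF, 15 of 42 members differed, 10 higher and 5 lower, against 8.88% of all genes (4.79% higher and 4.09% lower). With the compared groups alone fitted, 6 members passed, and 776 of all genes, against 1844 with all groups fitted. Summed neural stem cell genes were lower in iNSC_KF, at 73514 to 81756, than in NSC, at 122383 to 123306, and their part in the result was not tested. Adamts1, which cuts versican and aggrecan, had 857 and 1093 in iNSC_KF and 162 and 148 in NSC (log2 2.63 ± 0.18, adjusted p = 6.6e-12). Adamts5, a strong aggrecanase, had 659 and 696 in iNSC_KF and 194 and 197 in NSC (log2 1.78 ± 0.18). Mmp14 was again lower, at 3 and 6 in iNSC_KF, against 61 and 53 in NSC (log2 -3.22 ± 0.15).

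Further differences of iNSC_KF rested on less even values. Adamts16 had 108 and 384 in iNSC_KF and 0 and 22 in NSC (log2 4.89 ± 0.81), a difference that was 3.10 without NSC replicate 1. Mmp16, a transmembrane protease, had 1122 and 757 in iNSC_KF and 295 and 232 in NSC (log2 1.81 ± 0.16). Adamts4 was lower in iNSC_KF, at 681 and 649, than in NSC, at 1291 and 1933 (log2 -1.25 ± 0.23), but the difference was -0.96 without NSC replicate 2. Adamts14 had 48 and 80 in iNSC_KF and 254 and 129 in NSC. Mmp17, held by a lipid anchor, had 104 and 143 in iNSC_KF and 50 and 34 in NSC. The calls of these genes, Adamts16, Mmp16 and Adamts4 included, were lost when the compared groups alone were fitted, with adjusted p of 0.059 for Mmp16 to 0.19 for Adamts16. Adamts14 and Mmp17 also lost theirs without iNSC_KF replicate 1 or NSC replicate 1 (adjusted p = 0.064 and 0.10 for Adamts14, 0.061 and 0.059 for Mmp17), and Mmp17 also without iNSC_KF replicate 2 (0.22) or NSC replicate 2 (0.24). Timp4 averaged 558 ± 146 in iNSC_KF and 948 ± 68.6 in NSC, and Mmp15 8840.5 ± 2378 and 6262.5 ± 1677, neither past the test. Timp3 averaged 414 in iNSC_KF and 785.5 in NSC (log2 -0.998 ± 0.26), just short of the 2-fold needed.

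**Figure D1:**
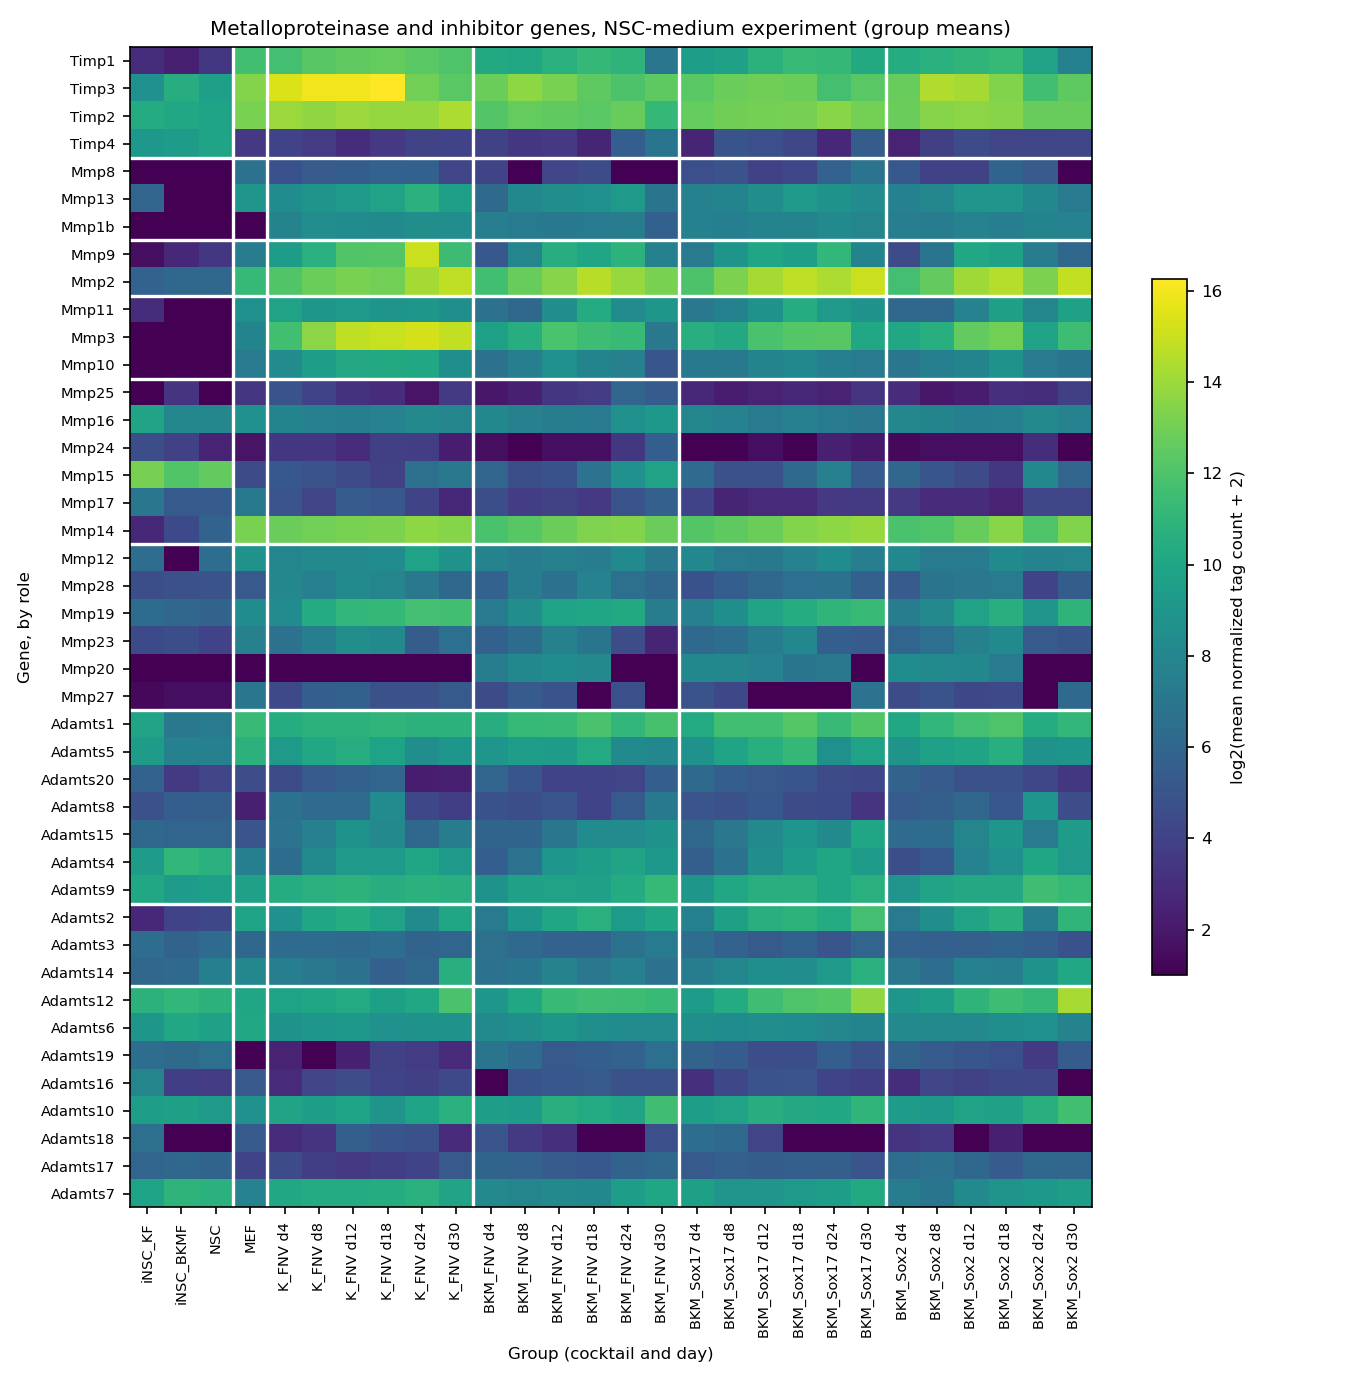
Group means of the 42 members of the NSC-medium table as log2 of the mean normalized tag count plus 2, with genes in rows by role and groups in columns. The neural stem lines at the left are darker than MEF for Timp1, Mmp2 and Mmp14 and brighter than MEF for Mmp15, Timp4 and Adamts4, and the Mmp3 row is brightest in K_FNV.

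By day 4 of factor expression, 20 of 42 members differed between the 4 cocktails and MEF, 10 higher and 10 lower, against 18.1% of all genes (9.79% higher and 8.33% lower). Mmp3, the stromelysin that activates other Mmp precursors, rose in this comparison, which pools the cocktails. It had 3065 and 3295 in K_FNV, 801 and 911 in BKM_FNV, 1421 and 1642 in BKM_Sox17 and 1260 and 975 in BKM_Sox2, against 234 and 243 in MEF (log2 2.61 ± 0.20, adjusted p = 8e-12). Every day 4 library was above both MEF libraries. Mmp1b, one of the mouse relatives of human MMP1, was listed at 0 in MEF and had 135 to 275 in the 8 day 4 libraries. Its smallest value above 0 in any library of the table was 101 there, with no value between 0 and 101.

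Mmp20, known as the enamel protease of teeth, separated the cocktails. At day 4 it had 113 and 221 in BKM_FNV, 266 and 292 in BKM_Sox17 and 340 and 346 in BKM_Sox2, and was listed at 0 in both K_FNV libraries, in MEF and in all neural stem lines. It stayed between 92 and 363 in every library of the 3 cocktails with Brn4 and c-Myc through day 18, and was listed at 0 in all 12 K_FNV libraries. After Dox it had 122 and 153 in BKM_Sox17 at day 24 and was listed at 0 in the other libraries of days 24 and 30 that were used. The smallest value above 0 was 92.

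Of the 10 members that fell by day 4, 5 were Adamts genes, a family that made up 18 of the 43 members. Adamts7, Adamts8, Adamts15, Adamts17, Adamts19 and Adamts20 rose. Adamts5 was at 426 to 578 in the 8 day 4 libraries, against 1777 and 1821 in MEF (log2 -1.86 ± 0.14). Adamts2 was at 139 to 453, against 930 and 884 in MEF (log2 -2.10 ± 0.39). Adamts4 was at 16 to 86, against 198 and 174 in MEF (log2 -2.02 ± 0.18), and Adamts6 at 287 to 455, against 1050 and 1145 (log2 -1.63 ± 0.14). Mmp17 was at 7 to 30, against 144 and 137 in MEF (log2 -2.87 ± 0.42), and Mmp23 at 42 to 113, against 227 and 177 (log2 -1.53 ± 0.20). Each of these 6 genes was lower in all day 4 libraries than in either MEF library. Summed fibroblast genes were 78688 to 200439 at day 4 and 258827 to 262930 in MEF. Macrophage genes were also lower than in MEF, at 936 to 1446 at day 4 and 111 to 2186 over all days on Dox. Epithelial genes were higher at day 4, with sums of 2807 to 11980, against 349 to 374 in MEF, and so were keratinocyte genes, at 1511 to 3525, against 46 to 82 in MEF. Their part in these differences was not tested.

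The Timps and the gelatinases were less uniform at day 4. Mmp14 was at 3471 to 6878 in the day 4 libraries and at 9479 in both MEF libraries (log2 -1.04 ± 0.12), a difference of -0.86 with median-ratio scaling. Timp1 had 3232 and 3294 in K_FNV at day 4, within the range of MEF, and 705 to 1449 in the other cocktails. Its pooled difference of -1.19 ± 0.38 (adjusted p = 0.0098) lost its call without MEF replicate 1 (adjusted p = 0.081) or 2 (0.058). Timp3 had 44404 in both K_FNV libraries and 5078 to 7809 in the others, with 11080 in MEF, so cells with and without Brn4 and c-Myc lay on opposite sides of MEF. Mmp2 (log2 0.68 ± 0.15), Mmp9 (-0.89 ± 0.35), Mmp13 (-1.42 ± 0.65), Timp2 (-0.30 ± 0.13), Timp3 (-0.11 ± 0.21) and Timp4 (0.31 ± 0.85) did not pass. Adamts8 had 26 to 115 at day 4 and 3 in both MEF libraries (log2 3.18 ± 0.28), and Adamts19 was listed at 0 in MEF and at 0 to 121 at day 4. Adamts15 had 57 to 121, against 16 and 44 in MEF (log2 1.44 ± 0.33), which was 0.76 without MEF replicate 1.

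From day 4 to day 18 on Dox, members rose far more often than they fell. Between day 18 and day 4, 20 members passed in BKM_FNV (18 higher, 2 lower), 21 in BKM_Sox17 (18 and 3), 20 in BKM_Sox2 (17 and 3) and 13 in K_FNV (9 and 4). Over all genes 22.9% passed in BKM_FNV (11.4% higher and 11.5% lower), 19.0% in BKM_Sox17 (9.37% and 9.67%), 17.0% in BKM_Sox2 (8.95% and 8.01%) and 10.4% in K_FNV (5.40% and 4.97%). The median log2 change of the members was 0.82, 0.78, 0.99 and 0.50, against 0.00, 0.00, -0.09 and 0.00 over all genes. In all 3 cocktails with Brn4 and c-Myc, 14 members rose, and 6 of these, Mmp3, Mmp9, Mmp19, Mmp23, Adamts4 and Adamts15, rose in K_FNV as well. Of all genes tested, 5.06% rose in all 3 and 2.08% in all 4. Each cocktail's comparison has its own libraries.

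Mmp9 had the steepest course in BKM_FNV and BKM_Sox2. It had 1260 and 744 at day 18 and 38 and 32 at day 4 in BKM_FNV (log2 4.72 ± 0.44, adjusted p = 6.1e-10). In BKM_Sox2 it had 451 and 1227 at day 18 and 22 and 18 at day 4 (log2 5.09 ± 0.44), in BKM_Sox17 625 and 940 against 180 and 123 (2.35 ± 0.44), and in K_FNV 4141 and 4910 against 728 and 647 (2.71 ± 0.44). Most of the change was present by day 12, when Mmp9 had 1493 and 1349 in BKM_FNV and 4737 and 4276 in K_FNV. K_FNV libraries were above those of every other cocktail at each day on Dox.

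Mmp19 rose in every cocktail. It had 2041 and 2516 at day 18 and 329 and 327 at day 4 in K_FNV (log2 2.78 ± 0.15), and the changes in BKM_FNV, BKM_Sox17 and BKM_Sox2 were 2.64, 2.78 and 3.15, each ± 0.15. Adamts4 rose by 2.79 ± 0.23 in K_FNV and by 3.95, 3.75 and 4.03, each ± 0.23, in BKM_FNV, BKM_Sox17 and BKM_Sox2. In BKM_FNV it had 785 and 666 at day 18 and 49 and 41 at day 4, so it passed its MEF level of 198 and 174 after first falling below it. Adamts15, also a proteoglycanase, rose by 1.35 ± 0.42 in K_FNV and by 2.36, 2.97 and 2.63, each ± 0.42, in the other 3. The K_FNV call was lost without its day 18 replicate 2 (adjusted p = 0.088) or day 4 replicate 2 (0.093).

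Mmp2 and Mmp11 rose with the Brn4 and c-Myc cocktails. Mmp2 had 26500 and 23868 at day 18 and 3252 and 3167 at day 4 in BKM_FNV (log2 2.97 ± 0.20), with changes of 2.76 in BKM_Sox17 and 2.85 in BKM_Sox2. In K_FNV it had 7282 and 9215 at day 18 and 4357 and 4532 at day 4 (0.88 ± 0.20), short of the 2-fold needed. The difference between the K_FNV and BKM_FNV courses was itself tested, and 18 of 42 members passed, 7 higher and 11 lower in K_FNV, against 14.7% of all genes (7.40% higher and 7.32% lower). For Mmp2 it was -2.09 ± 0.28 (adjusted p = 1.9e-06). Mmp11, a stromelysin activated inside the cell by furin, had 1381 and 1264 at day 18 and 85 and 119 at day 4 in BKM_FNV (log2 3.69 ± 0.25). In K_FNV Mmp11 had 546 and 385 at day 18 and 891 and 838 at day 4, and the difference between these courses was -4.60 ± 0.36 (adjusted p = 6.5e-10). The K_FNV libraries were thus above those of BKM_FNV at day 4 and below them at day 18.

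Adamts2 and Adamts12 also rose in the cocktails with Brn4 and c-Myc and did not pass in K_FNV. Adamts2 rose by 3.43 ± 0.49, 3.13 ± 0.49 and 3.33 ± 0.49 in BKM_FNV, BKM_Sox17 and BKM_Sox2, with 1567 and 1743 at day 18 and 139 and 166 at day 4 in BKM_FNV. In K_FNV it had 626 and 1130 at day 18 and 379 and 453 at day 4, and the courses differed by -2.41 ± 0.70 (adjusted p = 0.0092), a call lost without K_FNV day 18 replicate 1 (adjusted p = 0.056). Adamts12, which cuts cartilage oligomeric matrix protein, had 810 and 793 at day 18 and 920 and 954 at day 4 in K_FNV, against 3007 and 3087 at day 18 and 529 and 495 at day 4 in BKM_FNV. Its courses differed by -2.79 ± 0.27 (adjusted p = 2.8e-08). Mmp14 rose by 1.43 ± 0.15, 1.25 ± 0.15 and 1.62 ± 0.15 in BKM_FNV, BKM_Sox17 and BKM_Sox2 and had a change of 0.51 ± 0.15 in K_FNV, where it was higher at day 4.

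Mmp3 had its largest course in K_FNV. It had 29410 and 34130 at day 18 and 3065 and 3295 at day 4 (log2 3.32 ± 0.25, adjusted p = 7.7e-11). The changes were 1.80 ± 0.25 in BKM_FNV, 1.50 ± 0.25 in BKM_Sox17 and 2.90 ± 0.25 in BKM_Sox2. That in BKM_Sox17 was 0.88 without its day 18 replicate 2, which held 6620 beside 2820. The courses of K_FNV and BKM_FNV differed by 1.52 ± 0.35 (adjusted p = 0.0013). Mmp10, the neighbouring stromelysin, had 1426 and 1053 at day 18 and 354 and 295 at day 4 in K_FNV (1.92 ± 0.29), and 225 and 244 against 94 and 112 in BKM_FNV (1.18 ± 0.29).

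Fewer members fell between these days. Mmp20 had 107 and 208 at day 18 and 340 and 346 at day 4 in BKM_Sox2 (log2 -1.19 ± 0.25), and 146 and 92 against 266 and 292 in BKM_Sox17 (-1.25 ± 0.25). These were -0.72 without BKM_Sox2 day 18 replicate 1 and -0.92 without BKM_Sox17 day 18 replicate 2. In K_FNV, Adamts14 had 54 and 45 at day 18 and 189 and 175 at day 4 (-1.84 ± 0.37), and Adamts10 had 579 and 364 against 894 and 993 (-1.03 ± 0.20, or -0.70 without day 18 replicate 2 and -0.96 without day 4 replicate 2). Timp1 rose in BKM_Sox17, by 1.75 ± 0.48, and Timp2 to Timp4 passed in no cocktail over these days. Mmp13 passed in BKM_FNV, with 379 and 434 at day 18 and 77 and 76 at day 4 (2.38 ± 0.82, adjusted p = 0.018). Without 1 of these 4 libraries its adjusted p was 0.056 to 0.080.

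**Figure D2:**
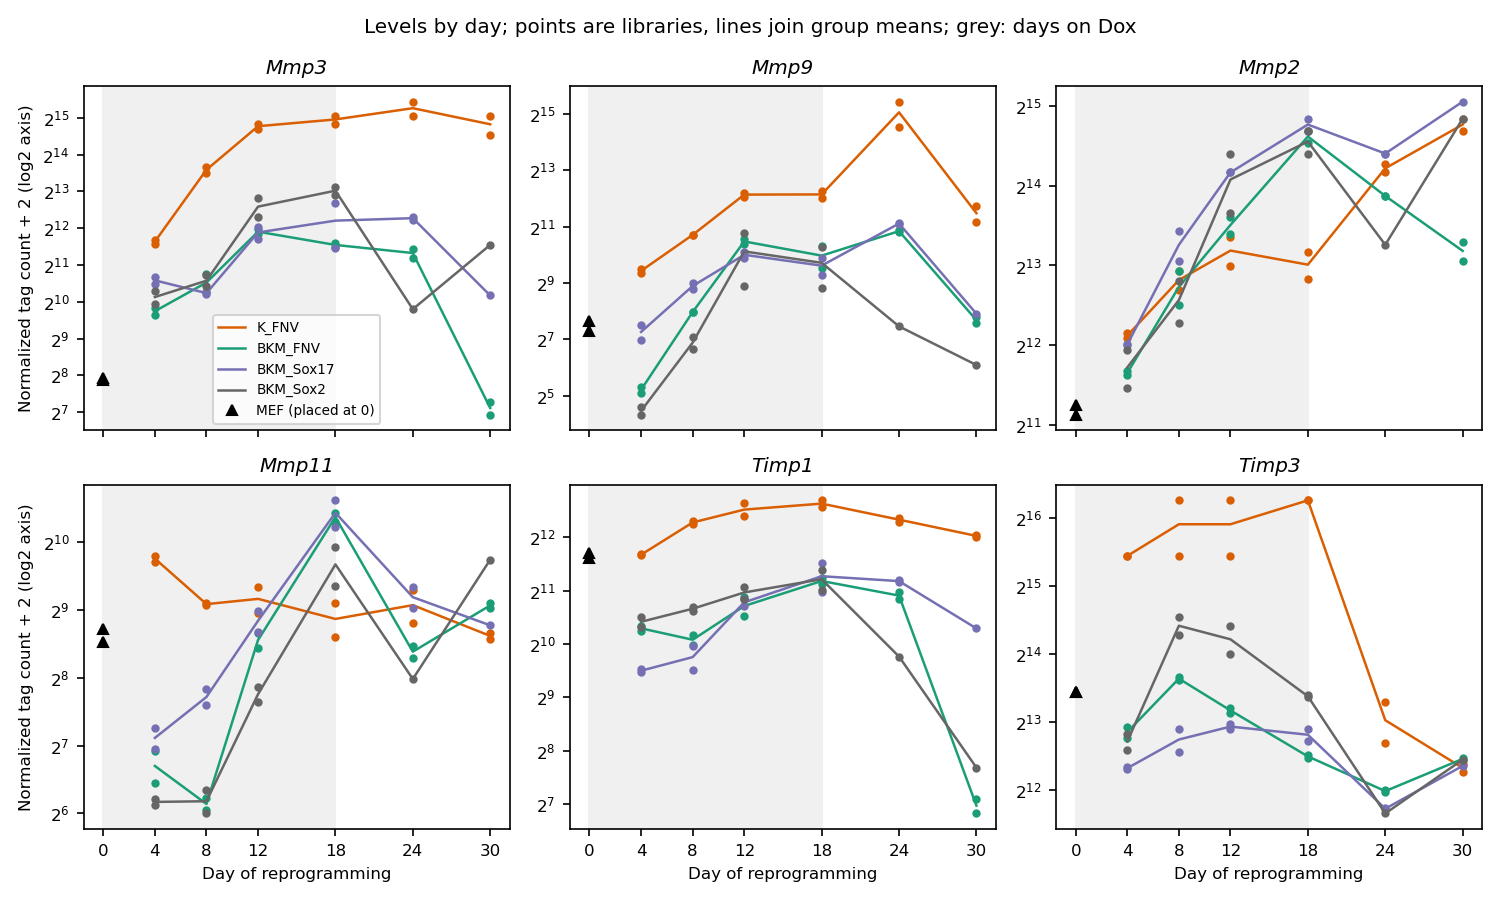
Normalized tag count plus 2 on a log2 axis against day for 6 members in the 4 cocktails, with MEF placed at 0 and the days on Dox shaded; points are libraries and lines join group means. Mmp3, Mmp9, Timp1 and Timp3 are highest in K_FNV on Dox, and Mmp2 and Mmp11 end highest at day 18 in the cocktails with Brn4 and c-Myc.

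Pathway genes moved in the same period. Of all 20760 genes 4752 passed in BKM_FNV, 2369 of them higher, and 2154 in K_FNV, 1122 of them higher. Of 11 tested genes of plasminogen and Mmp activation, 5 were higher and none lower at day 18 than at day 4 in BKM_FNV. Reck, a membrane-anchored inhibitor of Mmp proteins, rose by 2.75 ± 0.19 there. In K_FNV 3 of the 11 rose and none fell, with Reck up by 1.88 ± 0.19 and Bsg, which induces Mmp genes in neighbouring cells, up by 1.33 ± 0.05. Summed fibroblast genes were also higher at day 18 than at day 4, at 271271 to 277276 and 92221 to 106010 in BKM_FNV at 290065 to 292865 and 111007 to 134537 in BKM_Sox17, at 261015 to 291312 and 78688 to 112627 in BKM_Sox2, and at 301674 to 312309 and 192270 to 200439 in K_FNV. Epithelial sums at day 18 and at day 4 were 14139 to 21880 and 4440 to 5072 in BKM_FNV, 9459 to 11858 and 4983 to 5656 in BKM_Sox17, 8135 to 10140 and 10903 to 11980 in BKM_Sox2, and 3296 to 3755 and 2807 to 2874 in K_FNV. They were thus higher at day 18 in every cocktail but BKM_Sox2. Pluripotent cell sums were higher at day 18 in all 4, at 1149 to 2425 and 118 to 136 in BKM_FNV, 131 to 140 and 19 to 21 in BKM_Sox17, 94 to 148 and 37 to 42 in BKM_Sox2, and 147 to 393 and 56 to 63 in K_FNV. The part of these cell types in the courses was not tested.

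K_FNV and BKM_FNV, which differ by Brn4 and c-Myc, were compared at each day and the 4 differences on Dox were averaged. Of 42 members 21 passed, 18 higher and 3 lower in K_FNV, against 14.5% of all genes (7.50% higher and 6.97% lower), and the median log2 fold change was 0.73, against 0.01 over all genes. Mmp3 had 3065 to 34130 in the 8 K_FNV libraries and 801 to 4018 in the 8 BKM_FNV libraries, with no overlap at any day (log2 2.81 ± 0.12, adjusted p = 6.8e-17). At day 8 alone it had 11686 and 12929 in K_FNV, against 1224 and 1715 in BKM_FNV. Mmp9 averaged 2848 in K_FNV and 677 in BKM_FNV (2.71 ± 0.22), and Mmp10 868 and 230.1 (1.87 ± 0.14).

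Inhibitors were higher in K_FNV beside the proteases. Timp3, which binds to matrix (chr10:86300372-86349506), had 44404 to 78139 in K_FNV and 5674 to 12929 in BKM_FNV (log2 2.81 ± 0.13, adjusted p = 2.2e-16). In 4 K_FNV libraries it stood at 78139, the top of the table, so its level there is bounded by the normalization. Timp1 had 3232 to 6618 in K_FNV and 1013 to 2397 in BKM_FNV (1.71 ± 0.24), and Timp2 averaged 14909 and 5509.6 (1.44 ± 0.08). The 2 groups did not overlap for any of these 3 inhibitors. Timp4 had 5 to 19 in K_FNV and 4 to 22 in BKM_FNV (0.25 ± 0.54, not called). Adamts7, which cuts cartilage oligomeric matrix protein, averaged 1289 in K_FNV and 275 in BKM_FNV (2.23 ± 0.10), and Adamts8 148 and 23.8 (2.31 ± 0.18).

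The members lower in K_FNV were Mmp20, Adamts19 and Adamts17. Mmp20 was listed at 0 in K_FNV and averaged 269 in BKM_FNV, and Adamts19 had 0 to 20 in K_FNV and 34 to 121 in BKM_FNV (log2 -3.79 ± 0.41). Mmp13 was higher in K_FNV (1.19 ± 0.41, adjusted p = 0.016), while Mmp2 (-0.35 ± 0.10) and Mmp14 (0.49 ± 0.07) did not pass. The fitted value of Mmp20 in the plot of both periods rests on the pseudocount and is no fold. Epithelial genes were also lower in K_FNV, with sums of 2672 to 4349, against 4440 to 21880 in BKM_FNV, and fibroblast genes had sums of 192270 to 360005 and 92221 to 277276. Their part in the result was not tested. The keratinocyte lists overlapped, at 2198 to 4052 in K_FNV and 1511 to 6385 in BKM_FNV.

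**Figure D3:**
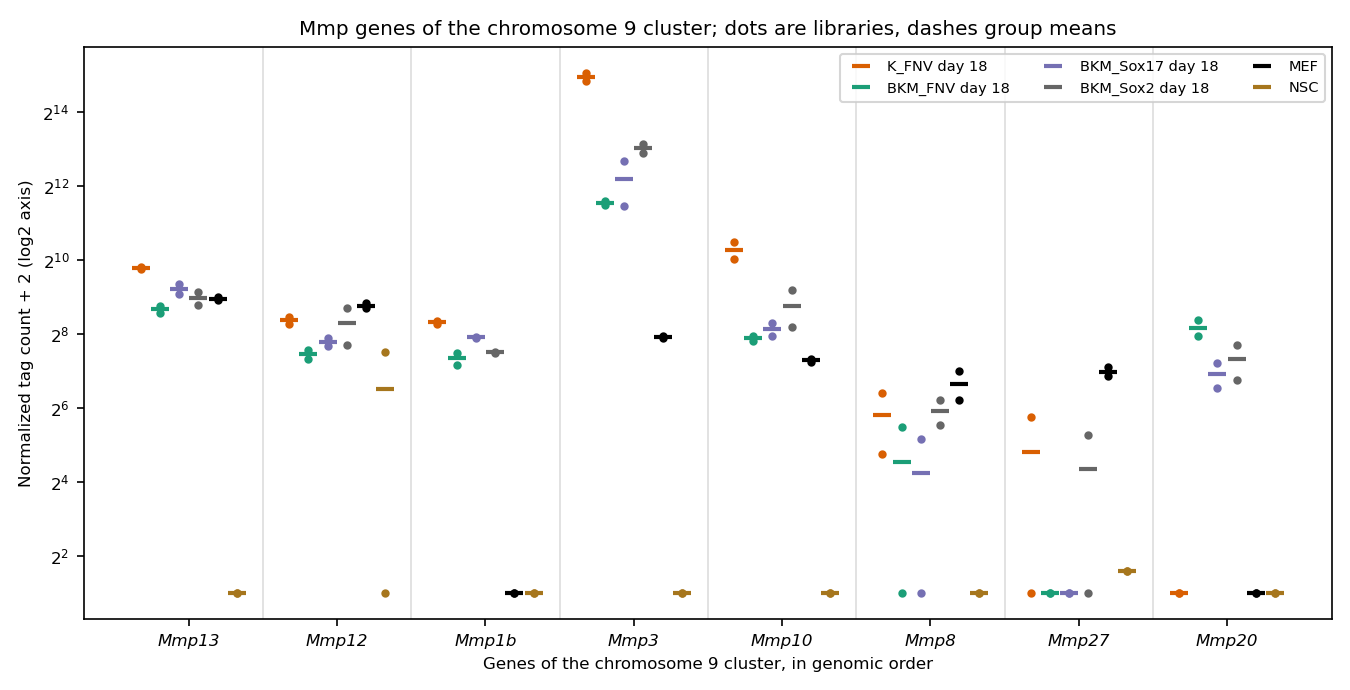
Normalized tag count plus 2 on a log2 axis for the 8 cluster genes of the NSC-medium table in their order on chromosome 9, at day 18 in each cocktail and in MEF and NSC; dots are libraries and dashes are group means. Mmp3 is higher in K_FNV than in the other groups shown, Mmp20 is at 0 in K_FNV, MEF and NSC, and in NSC these genes are at or near 0 apart from Mmp12 at 180 in 1 library.

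After Dox, Mmp3 had the largest difference of any member. K_FNV had 34130 and 44404 at day 24 and 23871 and 34130 at day 30, against 2784 and 2342 and then 153 and 120 in BKM_FNV (log2 5.81 ± 0.17, adjusted p = 2e-20). In this comparison 22 of 42 members passed, 11 higher and 11 lower in K_FNV, against 21.7% of all genes (10.9% higher and 10.8% lower), and the median was 0.15, against 0.08 over all genes. Mmp9 had 44402 and 23868 at day 24 in K_FNV, the highest values of this gene in the table, and 1777 and 1887 in BKM_FNV. At day 30 it had 3392 and 2308 in K_FNV and 217 and 189 in BKM_FNV, which gave 3.96 ± 0.31 over both days. Timp1 had 5289 and 5007 at day 24 and 4240 and 4093 at day 30 in K_FNV, against 1997 and 1837 and then 135 and 111 in BKM_FNV (3.25 ± 0.34). Timp2 (2.17 ± 0.12), Mmp10 (3.02 ± 0.20), Mmp19 (2.77 ± 0.11) and Mmp13 (2.16 ± 0.58) were also higher in K_FNV.

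Mmp1b averaged 357 in K_FNV and 109.8 in BKM_FNV after Dox, and its log2 fold change of 2.86 was 1.44 without BKM_FNV day 30 replicate 2, where it was listed at 0, and its adjusted p was 0.091 when the compared groups alone were fitted. Timp3 came close between these cocktails after Dox, with 6620 and 10068 at day 24 and 4912 and 5366 at day 30 in K_FNV, against 4018 and 4094 and then 5674 and 5588 in BKM_FNV (0.44 ± 0.18, not called). Timp3 in K_FNV had been at 78139 in both libraries of day 18.

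Mmp15 and Timp4, which were higher in NSC than in MEF, were lower in K_FNV after Dox. Mmp15 had 59 and 136 at day 24 and 116 and 154 at day 30 in K_FNV, against 468 and 372 and then 871 and 859 in BKM_FNV (log2 -2.43 ± 0.21, adjusted p = 6.1e-11). Timp4 had 0, 31, 6 and 23 in K_FNV and 50, 42, 123 and 118 in BKM_FNV (-2.84 ± 0.76), or -1.82 without K_FNV day 24 replicate 1. Every BKM_FNV library was above every K_FNV library for both genes. Adamts8 (-2.21 ± 0.25) and Adamts15 (-1.79 ± 0.30) were lower in K_FNV, and Adamts3 had -1.06 ± 0.18, which did not reach 1 in size without K_FNV day 24 replicate 2. Summed neural stem cell genes were 2261 to 3145 in K_FNV and 9589 to 17393 in BKM_FNV, both below the 73514 to 123306 of the neural stem lines. Pluripotent cell sums were 21 to 48 in K_FNV and 305 to 3301 in BKM_FNV, keratinocyte sums 467 to 1409 and 14 to 345, and epithelial sums 171 to 931 and 108 to 9757. Their part in these differences was not tested.

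BKM_FNV at day 30 was low for several proteases at once. Beside Mmp3 at 153 and 120 and Timp1 at 135 and 111, Mmp19 had 176 and 180, Mmp9 217 and 189 and Mmp23 4 in both libraries. Mmp14 was still at 7284 and 6878, Mmp2 at 10066 and 8533 and Timp3 at 5674 and 5588. Epithelial sums in BKM_FNV were 108 to 127 at day 30 and 9744 to 9757 at day 24, and fibroblast sums 243114 to 250638 and 244132 to 244857. No test was made between these days.

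**Figure D4:**
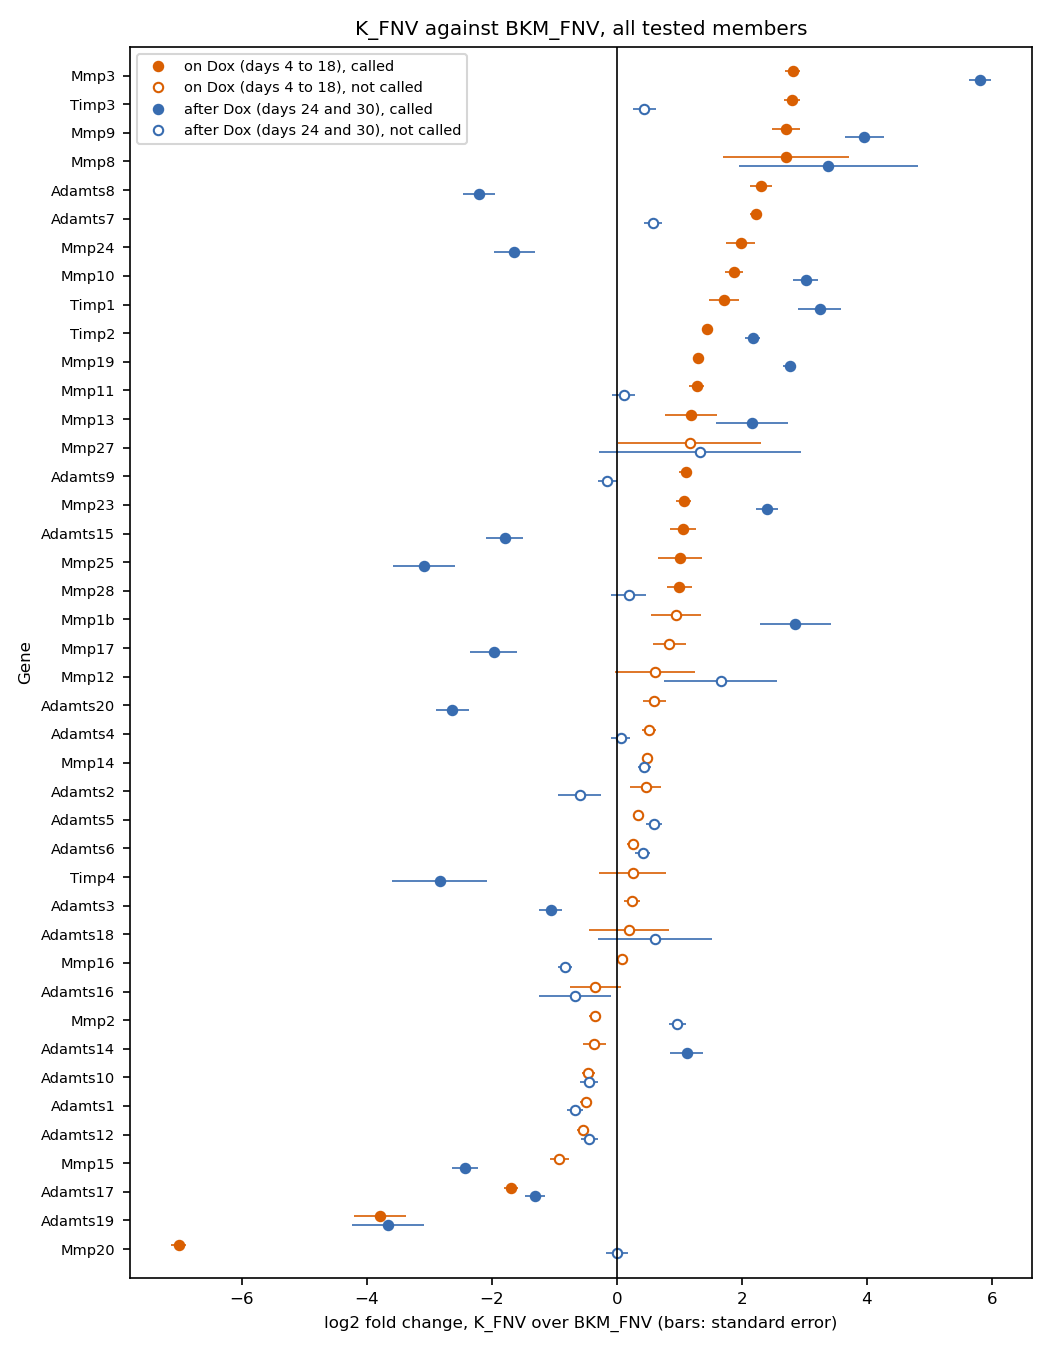
Log2 fold change of K_FNV over BKM_FNV for each tested member on Dox and after Dox, with standard errors as bars and filled points for genes that passed the test. Mmp3, Mmp9, Mmp10, Timp1, Timp2 and Mmp19 lie to the right in both periods, and Mmp15, Timp4 and Adamts15 lie to the left after Dox.

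After Dox 4504 of 20760 genes passed between K_FNV and BKM_FNV, 2260 of them higher in K_FNV. Of the 11 genes of plasminogen and Mmp activation, 6 were higher and none lower in K_FNV than in BKM_FNV after Dox. Plaur averaged 599 in K_FNV and 179 in BKM_FNV (log2 3.07 ± 0.18) and Serpinb2 475 and 206.5 (2.73 ± 0.55). On Dox 1 of the 11 was higher and 2 lower, where 3003 of all genes passed, 1556 of them higher in K_FNV. Of 8 proteoglycan substrates after Dox, 1 was higher and 4 lower in K_FNV, with Ncan at 0.5 in K_FNV and 1275.5 in BKM_FNV (-7.47 ± 0.22).

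On Dox few members passed between Sox factors, as did few of all genes. Between BKM_FNV and BKM_Sox17, 3 of 42 members passed, 1 higher and 2 lower, against 3.72% of all genes (2.29% higher and 1.43% lower). Mmp28 averaged 136 in BKM_FNV and 57.8 in BKM_Sox17 (log2 1.17 ± 0.20), Adamts7 275 and 608 (-1.12 ± 0.10) and Adamts14 145 and 293, just past 1 in size on the log2 scale (SE 0.18). The size of the Adamts14 difference fell below 1 with a pseudocount of 10, with median-ratio scaling and without any 1 of 8 libraries, down to -0.91 without BKM_Sox17 day 18 replicate 2. Between BKM_FNV and BKM_Sox2, 2 passed, both higher in BKM_FNV, against 6.18% of all genes (3.37% higher and 2.81% lower), with Adamts4 at 347 and 169 on average (1.19 ± 0.11). The other was Mmp17, at 14.5 in BKM_FNV and 5.88 in BKM_Sox2 (1.08 ± 0.27), which had 0.61 with a pseudocount of 10, 0.97 without BKM_FNV day 12 replicate 1 and 0.91 without BKM_Sox2 day 18 replicate 2. Mmp3 differed by -0.27 ± 0.12 between BKM_FNV and BKM_Sox17 and by -0.64 ± 0.12 between BKM_FNV and BKM_Sox2, neither past the threshold. These 2 comparisons share the BKM_FNV libraries. In each, 21 of 42 members had an unadjusted p below 0.05 in limma, many with differences of less than 2-fold. Of all 20760 genes, 7484 and 8431 did.

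After Dox more members differed by Sox factor. Between BKM_FNV and BKM_Sox17, 22 of 42 passed, 8 higher and 14 lower, against 17.8% of all genes (9.67% higher and 8.15% lower). Mmp15 averaged 642.5 in BKM_FNV and 119.5 in BKM_Sox17 (log2 2.70 ± 0.23), and Mmp16 482 and 145 (1.70 ± 0.13). Mmp3 averaged 1349.8 and 3047.5 (-2.01 ± 0.20), Mmp19 714 and 2275 (-2.25 ± 0.12), Adamts14 149.8 and 1140 (-2.81 ± 0.29) and Timp1 1020 and 1782 (-1.80 ± 0.38). Timp4 averaged 83.3 and 23.8 (2.40 ± 0.85), with adjusted p = 0.11 without BKM_Sox17 day 24 replicate 1. Mmp1b (-2.47) was -3.90 without BKM_FNV day 30 replicate 1 and -1.05 without replicate 2, with adjusted p = 0.23 when the compared groups alone were fitted. Mmp20 and Mmp8 were listed at 0 in all BKM_FNV libraries of these days, while in BKM_Sox17 Mmp8 had 106 and 0 at day 24 and 112 at day 30. The Mmp8 call was lost without BKM_Sox17 day 24 replicate 1 (adjusted p = 0.15). BKM_Sox17 had 1 library at day 30, and the fit assumes that it varies like the other groups. Summed neural stem cell genes were 9589 to 17393 in BKM_FNV and 770 to 1554 in BKM_Sox17 after Dox, pluripotent cell genes 305 to 3301 and 83 to 140, and epithelial genes 108 to 9757 and 305 to 3390. Their part in these differences was not tested.

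Between BKM_FNV and BKM_Sox2 after Dox, 14 passed, 8 higher and 6 lower in BKM_FNV, against 15.1% of all genes (8.72% higher and 6.42% lower), with 1 BKM_Sox2 library at each day. A lone library has no spread of its own, so the standard errors and calls here assume that it varies like the other groups of the table. Mmp9 averaged 1017.5 in BKM_FNV and 120 in BKM_Sox2 (log2 2.48 ± 0.38), Mmp15 642.5 and 171 (2.17 ± 0.25) and Adamts3 125.5 and 36 (1.77 ± 0.22). Adamts12 averaged 2712 and 11029 (-1.32 ± 0.17), where its values at day 30 were 2463 and 2516 in BKM_FNV and 19770 in the single BKM_Sox2 library. It had 13468 in the single BKM_Sox17 library of day 30. Adamts14 averaged 149.8 and 783 (-2.30 ± 0.32), Mmp3 1349.8 and 1938.5 (-1.46 ± 0.21), Mmp19 714 and 1230 (-1.06 ± 0.13, or -0.87 with median-ratio scaling), and Mmp1b 109.8 and 221 (-2.17, or -3.59 without BKM_FNV day 30 replicate 1 and -0.75 without replicate 2, with adjusted p = 0.42 when the compared groups alone were fitted). For Mmp3, Mmp19 and Adamts12 the 2 days went opposite ways. Mmp3 had 2784 and 2342 in BKM_FNV and 889 in BKM_Sox2 at day 24, and 153 and 120 against 2988 at day 30. Mmp19 had 1291 and 1209 against 500 at day 24, and 176 and 180 against 1960 at day 30. Adamts12 had 2804 and 3065 against 2288 at day 24. Their mean differences over both days thus hide a higher level in BKM_FNV at day 24 and a lower one at day 30. With the doubted BKM_Sox2 library kept, Mmp19 (0.93) and Adamts12 (0.83) turned direction. Summed neural stem cell genes were 9589 to 17393 in BKM_FNV and 1622 to 5782 in the BKM_Sox2 libraries used, pluripotent cell genes 305 to 3301 and 61 to 71, and epithelial genes 108 to 9757 and 58 to 463. Their part in the result was not tested.

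In the parallel experiment, medium after day 8 divided the members. Cells in N2B27 at day 4 differed from MEF in 17 of 42 members, 8 higher and 9 lower, against 18.4% of 20468 genes (9.88% higher and 8.54% lower). Mmp2 had 6531 and 6056 in these cells and 2286 and 2080 in MEF (log2 1.53 ± 0.16), and Mmp15 305 and 353 against 20 and 29 (3.66 ± 0.40). Adamts10 had 1080 and 1176 against 370 and 442 (1.47 ± 0.13), and Adamts15 144 and 138 against 21 and 52 (2.02 ± 0.34). Mmp28 had 117 and 89 against 39 and 47 (1.22), with adjusted p = 0.073 without day 4 replicate 1 and 0.061 without MEF replicate 1.

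Among members lower in N2B27 at day 4, Mmp9 had 14 and 17, against 207 and 166 in MEF (log2 -3.43 ± 0.32). Mmp8, Mmp10 and Mmp27 were listed at 0 in N2B27 at day 4, where MEF had 83 and 137, 168 and 161, and 125 and 147. Mmp12 had 0 and 113, against 450 and 411 in MEF, with -4.83 ± 1.63. The Mmp12 call was lost without MEF replicate 1 (adjusted p = 0.10), MEF replicate 2 (0.094) or N2B27 day 4 replicate 1 (0.41). The Mmp27 call was lost without any 1 of the 4 libraries (0.076 to 0.086). Macrophage sums were 858 and 902 in N2B27 at day 4 and 4988 to 5313 in MEF. Epithelial sums were 3786 to 3798 in N2B27 at day 4 and 367 to 394 in MEF, keratinocyte sums 2634 to 2710 and 59 to 102, and pluripotent cell sums 744 to 828 and 86 to 93. The part of these cell types was not tested. Mmp3 had 179 and 190 in N2B27 at day 4 and 241 and 253 in MEF (-0.42 ± 0.64), Mmp14 had -0.88 ± 0.18, Timp1, Timp2 and Timp3 had -0.25, 0.32 and 0.13, and Timp4 had -0.50 ± 1.05, none called.

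Between day 8 and day 4 in N2B27, 3 members rose, against 4.71% of all genes passing (3.00% higher and 1.71% lower). Timp3 had 34150 in both libraries at day 8 and 12950 and 13761 at day 4 (log2 1.35 ± 0.22, adjusted p = 0.0017). Mmp3 had 948 and 1058 against 179 and 190 (2.43 ± 0.64, adjusted p = 0.024), a call lost without any 1 of the 4 libraries (adjusted p = 0.060 to 0.13). Mmp10 had 69 and 65 at day 8 and was listed at 0 at day 4.

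Mmp9 carried the largest difference between the media. On Dox it had 29 and 15 at day 12 and 9 and 14 at day 16 in LIF/2i, against 1147 and 1158 and then 4548 and 3914 in NSC medium (log2 -6.98 ± 0.23, adjusted p = 8.7e-12). After Dox it had 50 and 49 at day 20 and 37 and 26 at day 24 in LIF/2i, against 4153 and 3943 and then 1613 and 2751 in NSC medium (-6.15 ± 0.23, adjusted p = 1.6e-11). The N2B27 cells at day 8, from which both arms came, had 21 and 23. The level in LIF/2i thus lay between 9 and 50, while every NSC-medium library had at least 1147. Within LIF/2i Mmp9 was higher after Dox than on Dox (log2 1.24 ± 0.23).

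On Dox, 12 of 42 members differed between LIF/2i and NSC medium, 4 higher and 8 lower, against 15.5% of all genes (8.07% higher and 7.45% lower), and the median was 0.00, against -0.03 over all genes. Timp1 had 1379 and 939 at day 12 and 1168 and 674 at day 16 in LIF/2i, against 3138 and 3440 and then 6163 and 5080 in NSC medium (log2 -2.09 ± 0.51, adjusted p = 0.0039). Mmp19 averaged 166.5 in LIF/2i and 657 in NSC medium (-1.64 ± 0.13), Mmp11 114.5 and 405 (-1.35 ± 0.20, with overlap at day 12), Adamts10 478 and 1133 (-1.17 ± 0.09) and Adamts7 187 and 392.5 (-1.13 ± 0.15, or -0.92 without LIF/2i day 16 replicate 1). Mmp15 averaged 149.5 in LIF/2i and 58.8 in NSC medium (1.62 ± 0.28). Mmp3 (-0.11 ± 0.45), Mmp2 (-0.29 ± 0.11), Mmp14 (0.08 ± 0.13) and Timp3 (0.94 ± 0.16) did not pass, and Mmp13 stood at 1.00 ± 0.16, just under the threshold.

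After Dox, 21 members differed, 2 higher and 19 lower in LIF/2i, against 24.5% of all genes (12.2% higher and 12.3% lower), and the median was -1.06, against -0.10 over all genes. Mmp2 had 8369 and 8617 at day 20 and 6459 and 6163 at day 24 in LIF/2i, against 30887 and 28991 and then 28991 in both libraries in NSC medium (log2 -2.01 ± 0.11, adjusted p = 1.2e-09). Adamts12 averaged 434 in LIF/2i and 2928 in NSC medium (-2.60 ± 0.13), Adamts10 483 and 2022 (-2.16 ± 0.09) and Mmp19 391 and 1699.5 (-2.05 ± 0.13). Mmp14 averaged 7002.5 and 14587.5 (-1.04 ± 0.13), under 1 in size without NSC-medium day 20 replicate 2 or LIF/2i day 20 replicate 1. Mmp10 had 27, 60, 0 and 82 in LIF/2i and 192, 164, 74 and 130 in NSC medium (-2.52 ± 0.73), or -1.17 without LIF/2i day 24 replicate 1 and -3.86 without replicate 2. Its adjusted p was 0.11 when the compared groups alone were fitted. Mmp3 did not pass. It had 2643 to 5538 at day 20 and 3094 to 4921 at day 24 in LIF/2i, against 4921 to 6861 and then 329 to 2929 in NSC medium.

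The 2 members higher in LIF/2i after Dox were Mmp17 and Mmp7. Mmp17 then had 328 and 175 at day 20 and 227 and 221 at day 24 in LIF/2i, against 13 and 17 and then 61 and 18 in NSC medium (log2 3.25 ± 0.31, adjusted p = 2.8e-07). On Dox it had 15 to 30 in LIF/2i and 9 to 20 in NSC medium, and MEF had 154 and 147. The change of the medium difference on Dox withdrawal passed in 11 of 42 members, 1 higher and 10 lower, against 13.9% of all genes (6.51% higher and 7.36% lower). For Mmp17 it was 2.76 ± 0.43 (adjusted p = 0.00024). Mmp7, matrilysin, had 38, 17, 14 and 0 on Dox and 0, 25, 7 and 16 after it in LIF/2i and was listed at 0 in every other library of its table. Pluripotent cell genes summed to 21322 to 36363 on Dox and 54874 to 83615 after it in LIF/2i, against 2669 to 9293 and 1553 to 6736 in NSC medium. Their part in these differences was not tested.

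**Figure D5:**
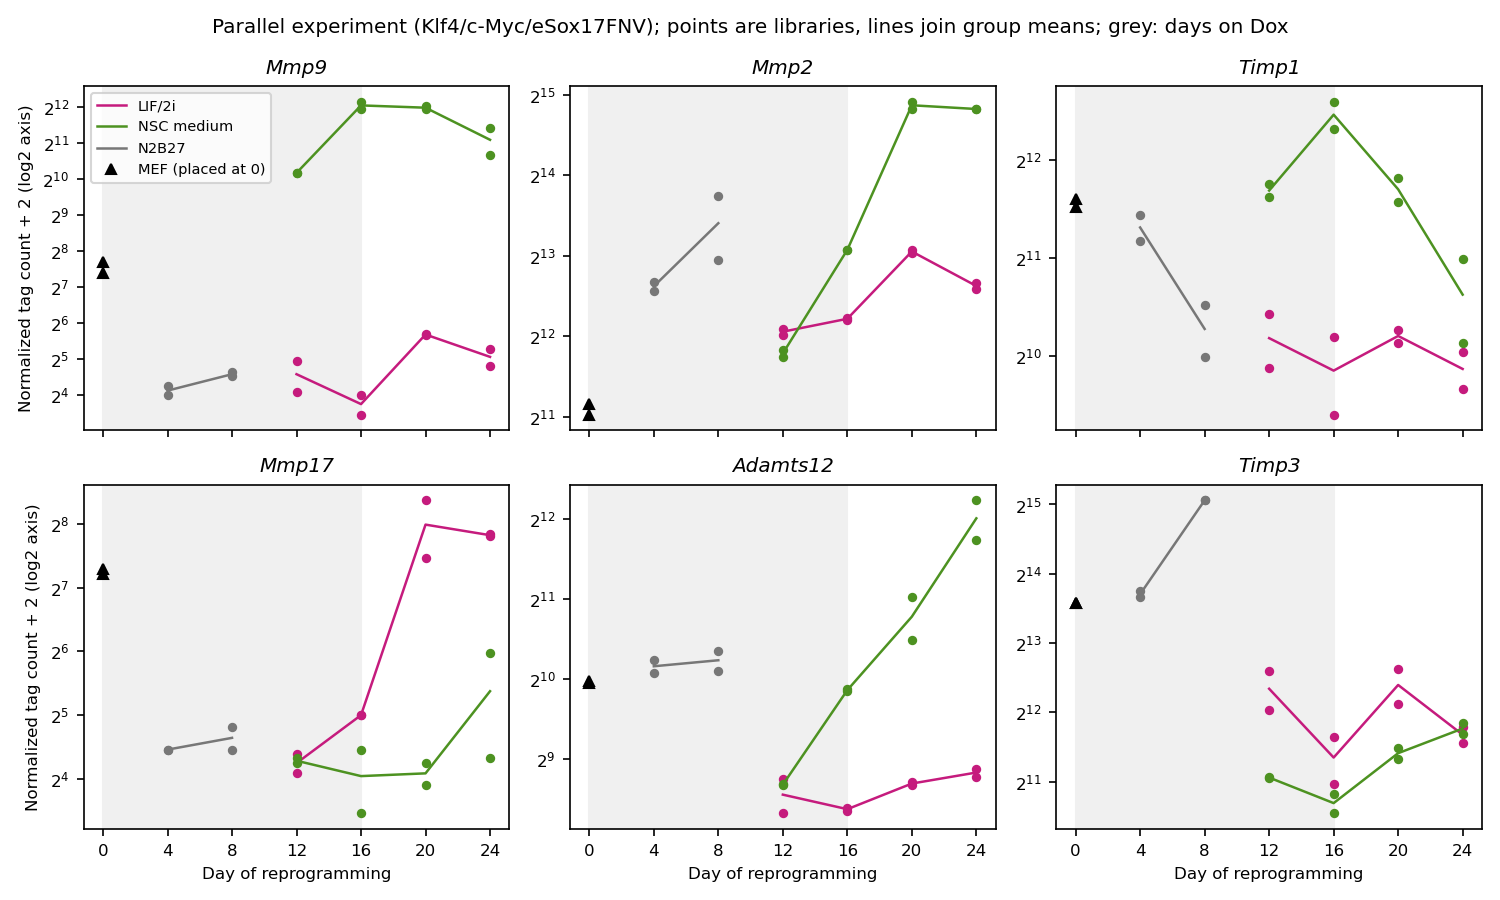
Normalized tag count plus 2 on a log2 axis against day for 6 members in LIF/2i, NSC medium and N2B27, with MEF placed at 0 and the days on Dox shaded; points are libraries and lines join group means. Mmp9 is at 50 or less in LIF/2i, Mmp17 rises there after Dox, and Mmp2 and Adamts12 climb in NSC medium.

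Within NSC medium, 18 members were higher after Dox than on Dox and none lower, against 20.5% of all genes (11.2% higher and 9.33% lower). Mmp2 averaged 29465 after and 6073 on Dox (log2 2.42 ± 0.11), Mmp14 14587.5 and 3599.8 (2.14 ± 0.13), Adamts1 3008 and 629 (2.36 ± 0.21), Adamts2 1469 and 232 (3.08 ± 0.25) and Adamts3 120.5 and 18 (2.57 ± 0.37). Within LIF/2i, 11 were higher and 2 lower, against 11.6% of all genes (6.40% higher and 5.16% lower). Mmp17 averaged 238 after and 23.5 on Dox (3.25 ± 0.31), Adamts2 658 and 137 (2.27 ± 0.25), Mmp11 310.5 and 114.5 (1.47 ± 0.20) and Adamts1 1811.5 and 690.3 (1.44 ± 0.21). Mmp3 averaged 4049 and 1684 (1.23 ± 0.45), Mmp9 40.5 and 16.75 (1.24 ± 0.23) and Mmp14 7002.5 and 3508.75 (1.01 ± 0.13), all called. Mmp10 averaged 42.3 and 96.5 (-2.05), or -0.70 without LIF/2i day 24 replicate 1. The call was also lost without replicate 1 of day 20 or any 1 library of days 12 and 16, and was kept without replicate 2 of day 20 or 24. Summed fibroblast genes were 341208 to 360279 after and 67820 to 185302 on Dox in NSC medium, and 203958 to 318307 and 126764 to 237276 in LIF/2i. In NSC medium, epithelial sums were 2927 to 7759 after and 13830 to 16879 on Dox, keratinocyte sums 111 to 655 and 3106 to 7035, and endothelial sums 874 to 1289 and 2223 to 2982. In LIF/2i, epithelial sums were 9021 to 13208 after and 16016 to 20284 on Dox, and keratinocyte sums 103 to 368 and 1328 to 2495. Their part in these changes was not tested. Timp4 was listed at 0 in the 4 NSC-medium libraries on Dox and had 33 and 26 at day 20 and 72 and 51 at day 24.

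Pathway genes differed between the media as well. Of 11 tested genes of plasminogen and Mmp activation, activators and inhibitors together, 5 were lower on Dox and 7 after it in LIF/2i, with none higher. Of all 20468 genes 3176 passed on Dox, 1651 of them higher, and 5016 after it, 2507 of them higher. Plau, urokinase, averaged 177 in LIF/2i and 2811 in NSC medium on Dox (log2 -3.94 ± 0.61), and 147.5 and 3604.5 after it (-4.64 ± 0.61). Plat, the tissue-type activator, averaged 371.5 and 1775 on Dox (-2.18 ± 0.12) and 452 and 3754.5 after it (-3.07 ± 0.12). Serpinb2, an inhibitor of plasminogen activators, averaged 65.8 and 326 on Dox (-4.35 ± 1.58, adjusted p = 0.037).

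The group with the highest mean differed among members. Of the 42 in the NSC-medium table, 12 peaked in K_FNV, among them Timp1, Timp2, Timp3 and 5 genes of the chromosome 9 cluster, 10 in BKM_Sox17, 6 in BKM_Sox2, 4 in BKM_FNV, 8 in the neural stem lines and 2 in MEF. Of the 42 in the parallel table, 21 peaked in NSC medium, 6 in N2B27, 4 in LIF/2i, 7 in the neural stem lines and 4 in MEF. These peaks are descriptions of group means with no test, and most groups of both tables were reprogramming cells.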

How the data were processed

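The authors deposited 1 table of normalized tag counts for each experiment, whose whole numbers were handled as a score, being normalized and not per gene length. Bowtie2 2.0, RSEM and mm10 are named in the submitters' processing notes; the normalization and any strand marking are not given in the sources used here. All used columns of a table share a maximum (78139 and 87546) and nearly a median (166 and 194 to 195), so differences are relative to the other genes of a library, high values are bounded and read depth is unknown.

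Columns were matched to samples by name, NSC columns to their group only, and 4 columns matched no labelled sample and were not used. Replicate 1 of BKM_Sox2 at day 24 was left out of the fits: its total was 15873664, against 17698392 to 17710071 in the other libraries, and 18322 of its 21241 rows lay on 1 run of never-falling values down the table, against at most 4569 elsewhere. Libraries of a group share no stated culture or animal, so p-values measure the spread between these samples, which may be technical.

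Each table was fitted once with limma 3.58.1 in R 4.3.3 on log2(value + 2), with a trend of variance on mean and a mean per group. Genes with at least 10 in at least 2 libraries were tested. Log2 fold changes are on the log2(value + 2) scale, which understates changes of low genes. P-values were two-sided and adjusted by Benjamini-Hochberg over all genes of each of 22 comparisons, and a gene was called at an adjusted p below 0.05 with a log2 fold change of at least 1 in size. Differences over several days are means of the daily differences, and averages over days are means of group means. Comparisons share MEF, NSC or BKM_FNV libraries, so they are not independent. Days 4 to 18 and days 24 and 30 were not compared within a cocktail. The fits were tested on simulated data.

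The members and lists were chosen with earlier results of these data known. Named members are up to 6 called ones per direction with a mean of at least 100 in a compared group, and often Timp1 to Timp4, Mmp2, Mmp3, Mmp9, Mmp13 and Mmp14. A member not named for a comparison may still have passed. Mmp1b, Mmp20 and others outside this rule were picked after their values were seen. Alternatives were a pseudocount of 10, no filter, median-ratio scaling, the compared groups alone, a replicate block, the left-out library kept, and each library left out in turn. The values of 1 gene of the pathway lists are not reported here.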

Additional observations from a re-analysis of the deposited data

Results flagged for a closer look

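The results given here were picked because 2 cocktails or 2 media differed in how the same gene changed, by a test of the difference itself. Between the day 4 to day 18 courses of K_FNV and BKM_FNV, 18 of 42 members differed, 7 with a higher and 11 with a lower change in K_FNV, where 14.7% of all genes did (limma, adjusted over all genes). On the lower side, Mmp11 had a change of -0.91 in K_FNV and 3.69 in BKM_FNV on the log2 scale, a difference of -4.60. Adamts12 had -0.22 and 2.57, a difference of -2.79, and Adamts2, a procollagen N-proteinase, 1.02 and 3.43, a difference of -2.41. Adamts14, of the same subfamily, had -1.84 and 0.31 (-2.15), Mmp28 -0.16 and 1.98 (-2.14) and the gelatinase gene Mmp2 0.88 and 2.97 (-2.09).

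On the other side, Adamts19 had a change of 1.73 in K_FNV and -1.33 in BKM_FNV, a difference of 3.06 with an adjusted p of 0.047. That call was lost with a replicate block (adjusted p = 0.058), with the compared groups alone (0.094) and without any 1 of 6 libraries (0.077 to 0.28). Adamts8 had 1.59 and -0.83 (2.42), Mmp3 3.32 and 1.80 (1.52) and the inhibitor gene Timp3 0.82 and -0.36 (1.17). The Timp3 difference was lost without BKM_FNV day 4 replicate 1 (adjusted p = 0.054), and Timp3 stood at the top of the table in 4 K_FNV libraries.

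Between LIF/2i and NSC medium, 11 of 42 members had another difference after Dox than on Dox, 1 higher and 10 lower, where 13.9% of all genes did. Mmp17 had 3.25 after and 0.50 on Dox, a change of 2.76. The others moved down. Adamts17 had -1.91 after and 0.09 on Dox (-2.00), Adamts3, a procollagen N-proteinase, -0.96 and 0.93 (-1.89), the membrane-type gene Mmp16 -1.90 and -0.05 (-1.85) and Adamts12 -2.60 and -0.81 (-1.79). Mmp2 had -2.01 and -0.29 (-1.71) and the proteoglycanase gene Adamts15 -0.90 and 0.42 (-1.32). Summed fibroblast genes moved with these changes, and their part was not tested.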

How the results depend on the processing

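The largest dependence was on the left-out BKM_Sox2 library. With it kept, the members called were 13 at day 4 against MEF, 11, 11, 12 and 4 for the courses of BKM_FNV, BKM_Sox17, BKM_Sox2 and K_FNV, 5 for the difference between the K_FNV and BKM_FNV courses, 12 between BKM_FNV and BKM_Sox17 after Dox, and 1 and 4 in iNSC_BKMF and iNSC_KF against NSC. Calls over all genes fell too, from 3762 to 2384 at day 4 and from 3056 to 644 for the difference between those courses. For the courses, in the same order, they fell from 4752, 3953, 3520 and 2154 to 2113, 1706, 1470 and 737. Between BKM_FNV and BKM_Sox17 after Dox they fell from 3699 to 2266, and in iNSC_BKMF and iNSC_KF from 420 and 1844 to 93 and 708. With that library kept, Mmp19 (0.93) and Adamts12 (0.83) reversed between BKM_FNV and BKM_Sox2 after Dox. In the fit each gene has 1 spread for all groups of a table. Comparisons without BKM_Sox2 after Dox kept their log2 fold changes, and their adjusted p moved. Adamts1 in iNSC_KF against NSC had 2.63 with and without that library, with adjusted p in limma of 0.47 and 6.6e-12. Among single calls, 148 held with it kept and 93 lost their call.

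With the compared groups alone, limma called 6 members in iNSC_KF and 0 in iNSC_BKMF against NSC. Of all genes it called 776 and 69, against 1844 and 420 with all groups fitted. In iNSC_BKMF 8 members had an unadjusted p below 0.05 with the compared groups alone. With all groups fitted 8 members and 3707 of 20760 genes did. With a pseudocount of 10, 1 member passed between BKM_FNV and BKM_Sox2 on Dox, and 892 of all genes, against 1283 with a pseudocount of 2. Single calls kept and lost were 311 and 27 with that pseudocount, 329 and 9 with median-ratio scaling, 338 and 0 without the filter and 298 and 33 with the compared groups alone, and none of these reversed. Leaving out 1 library kept 2148 and lost 228 calls. It gave 1 to 3 members between BKM_FNV and BKM_Sox2 on Dox, 2 to 6 in iNSC_BKMF against NSC and 2 to 5 between day 8 and day 4 in N2B27.

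Same-numbered replicates showed no shared deviation across groups, which cannot exclude that some samples were paired. Deviations of same-numbered libraries correlated at -0.0756 to 0.0918 over 276 pairs of groups in the NSC-medium table and at -0.0500 to 0.0879 over 66 in the parallel table. The replicate block gave 5 members between day 8 and day 4 in N2B27 and kept 287 and lost 4 single calls. Of all genes 1000 passed between these days with the block, against 964 without it. No paired analysis was possible for comparisons with NSC because its columns carry no sample's number. Unknown depth limits what can be said of genes listed at 0.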

Other observations

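Relatives outside the 3 families were read in the same fits. Of 7 Adam sheddases, which release growth factors and receptors from the cell surface, 2 were higher and none lower in K_FNV than in BKM_FNV on Dox. Of all 20760 genes 3003 passed between these cocktails on Dox, 1556 of them higher, and 4504 after it, 2260 of them higher. Adam19 averaged 3124 in K_FNV and 982 in BKM_FNV (log2 1.64 ± 0.10), and Adam15 averaged 9261 and 3425 (1.46 ± 0.05), with no overlap at any day for either. After Dox Adam15 alone of the 7 passed, at 3755 in K_FNV and 1073 in BKM_FNV (1.86 ± 0.08). In LIF/2i after Dox 2 of the 7 were lower than in NSC medium, where 5016 of 20468 genes passed, 2507 of them higher. Adam12 averaged 342 in LIF/2i and 1283 in NSC medium (-1.78 ± 0.15).

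Adamts-like proteins share the matrix-binding parts of Adamts proteases but have no protease domain. Of 5 tested genes of this kind and papilin, 1 rose and 4 fell in NSC against MEF. Of all 20760 genes 7141 passed there, 3677 of them higher in NSC. Papln averaged 88 in NSC and 1 in MEF (log2 4.99 ± 0.35), and Adamtsl4 averaged 1.5 in NSC and 227.5 in MEF (-6.18 ± 0.33). Adamtsl3 averaged 47 in LIF/2i and 410 in NSC medium after Dox (-2.94 ± 0.23). Summed endothelial genes, 5 of 6 with a row, were 1587 to 3655 in K_FNV and 452 to 1137 in BKM_FNV on Dox, and their part in the differences between these cocktails was not tested.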
